A study of Mus musculus with 12 samples.

Results

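The integrated stress response genes described here are 10 regulators that act with or below the transcription factors ATF4 and CHOP in the PERK branch of the unfolded protein response: Atf3, Atf4, Atf5, Ddit3, Nupr1, Trib3, Chac1, Ddit4, Sesn2 and Vegfa. They were chosen by name, as every probe set that the platform annotation assigns to one of these symbols, which gave 17 of the 34945 probe sets with 1 gene symbol and 10 of the 14568 genes tested. All 10 genes and 16 of the 17 probe sets passed the filter on dim probe sets. The dim one was a probe set of Atf4.

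Livers of control mice, titled Fe+CRE+, and of Ire1α null mice, titled Fe-CRE+, were compared on Affymetrix arrays, 3 livers in each of 4 groups, to ask how loss of Ire1α alters the transcriptional response to endoplasmic reticulum (ER) stress. All animals were on the C57Bl/6J background and 3 months old. In each genotype, 1 group received tunicamycin intraperitoneally at 2 µg per gram and the other a vehicle of 150 µM dextrose, with livers collected after 8 hours. Ire1α, encoded by Ern1, is the kinase and RNase that splices Xbp1 mRNA. Tunicamycin blocks N-linked glycosylation, so that unfolded glycoproteins build up in the ER. The labels call the null animals conditional and mark both genotypes CRE+. The sources used here do not give the promoter that drove Cre, the part of Ern1 that was deleted or the sex of the animals.

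PERK, the kinase of this branch, phosphorylates the initiation factor eIF2α, which lowers general translation while the mRNA of ATF4 is translated more. ATF4 then pairs with C/EBP-type partners and raises CHOP (encoded by Ddit3), ATF3 and many genes of amino acid supply, and CHOP and its partners add GADD34 and TRIB3, which damp the signal again. The arrays measured mRNA, so the translational step itself is not seen here. IRE1 and ATF6 run the other 2 branches, and in liver all 3 branches answer tunicamycin.

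The promoters of several of these genes carry the composite site that ATF4 and CHOP bind with C/EBP proteins, known as a C/EBP-ATF or amino acid response element. The 250 bases before the transcript start were searched in the RefSeq promoter windows of GRCm38.p6, on both strands, for forms chosen with the results known. TGATGCAA was found in 3 of the 10 genes, against 0.791% of 32851 windows, and in all 3 it stood as its reverse complement, TTGCATCA. These 3 windows are shown with the octamer in capitals, because they hold the ATF4 and CHOP type of site. In Atf3 the second capital stretch is a match to the ATF/CRE form TNACGTCA, found in 2.52% of windows.

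Atf3 chr1:191183334-191183461, minus strand: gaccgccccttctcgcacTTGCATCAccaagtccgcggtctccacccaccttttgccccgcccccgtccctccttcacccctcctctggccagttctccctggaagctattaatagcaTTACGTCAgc

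Chac1 chr2:119350998-119351107, plus strand: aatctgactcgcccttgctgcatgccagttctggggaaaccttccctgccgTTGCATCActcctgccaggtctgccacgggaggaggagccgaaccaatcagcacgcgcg

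Nupr1 chr7:126625522-126625631, minus strand: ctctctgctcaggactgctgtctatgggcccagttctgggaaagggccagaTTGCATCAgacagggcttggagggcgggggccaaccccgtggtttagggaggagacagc

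The octamer lay 103 bases before the start in Atf3, 186 in Chac1 and 103 in Nupr1. The looser core TGATGNAA matched the same 3 genes, at the same sites, and 3.45% of all windows. The ER stress element, to which ATF6 and NF-Y bind, was searched as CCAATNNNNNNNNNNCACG, its form without 1 of the C letters. It matched 1 of the 10 genes, Ddit3, and 0.253% of all windows. That window is shown as the 1 match to this form, in capitals, again as the reverse complement and 73 bases before the start.

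Ddit3 chr10:127290656-127290765, plus strand: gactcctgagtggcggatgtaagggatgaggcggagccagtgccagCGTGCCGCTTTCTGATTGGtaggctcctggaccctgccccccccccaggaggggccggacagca

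A match describes the letters in these windows and was not tested for binding. Sites farther from the start were not searched.

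Some arrays must be named before the values. Null tunicamycin replicate 2 carried kidney transcripts: 12 of 16 tested kidney markers lay more than 1 log2 unit above every other array, and the summed kidney marker intensity reached 37818 there, against at most 2338 in the other 3 groups. The ratio of 5' to 3' signal of the Gapdh control probe sets, a sign of RNA integrity, ranged from 0.1805 in null vehicle replicate 1 to 0.7745 in control vehicle replicate 1. After tunicamycin it was 0.523 to 0.577 in control and 0.37 to 0.435 in null livers, without overlap between the genotypes. The same ratio of the actin probe sets moved with treatment: it was 0.454 to 1.10 in control vehicle and 0.295 to 0.389 in control tunicamycin livers, without overlap, and 0.296 to 0.633 and 0.205 to 0.434 in null livers, which overlap. When the actin ratio entered the fit, the count of all genes called in control livers went from 3636 to 1885, and 9 of the 10 regulators were still called, all but Vegfa. Hepatocyte markers were measured at a summed intensity of 79223 to 95608 over all groups, and no marker of any cell type list was listed at 0. Of 8 hepatocyte markers limma called 0 after tunicamycin in either genotype, with 0 in control and 2 in null livers at an unadjusted p under 0.05. Of 11 Kupffer cell markers, 1 was lower after tunicamycin in control and 2 in null livers. Between genotypes under tunicamycin limma called 0 of these 11, and 4 had an unadjusted p under 0.05. All 11 were lower in null livers, by -0.83 to -0.09 with a median of -0.66, and the part of this in the results was not tested. Of 16 kidney markers 1 was lower in control livers. Limma called 0 markers of the neutrophil and monocyte, lymphocyte, endothelial and stellate cell lists after tunicamycin in either genotype, and 1 stellate marker in each genotype had an unadjusted p under 0.05. The summed neutrophil and monocyte markers nevertheless reached 10989 in control tunicamycin replicate 2 and 4817 in null tunicamycin replicate 3, against 661 to 2396 in the other 10 arrays. Without control tunicamycin replicate 2, all 10 regulators were still called in control livers. The summed bile duct markers were 153 to 269 with vehicle, 550 to 986 in control livers after tunicamycin and 1631 to 1927 in null livers after tunicamycin, with 1 of 5 tested markers higher after tunicamycin in each genotype. Their part in the results was not tested. Of 5 Ern1 probe sets, 0 differed between the genotypes by limma (lowest unadjusted p = 0.193). Since the deleted part is not known here, these probe sets do not check the labels.

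After tunicamycin, 9 of the 10 regulators rose in control livers and 1, Vegfa, fell, while 25% of all genes tested were called in either direction and 11.6% were called higher. In null livers the same count of 9 rose and 0 fell, against 16.8% of all genes called and 7.59% called higher. In control livers the arrays of 9 genes did not overlap in the higher direction and those of 1 in the lower, where 42.6% of all genes did not overlap, 18% higher and 24.5% lower. In null livers 9 did not overlap in the higher direction, where 33.1% of all genes did not overlap, 13.6% higher and 19.4% lower. Called lower in null livers were 9.23% of all genes and 0 of the 10. The median log2 response of the 10 genes was 3.30 in control and 2.49 in null livers, beside -0.11 and -0.07 over all genes. All 9 risers were at least 2-fold higher in both genotypes, which held for 5.42% of all genes in control and 3.14% in null livers. The genes called higher made up 46.6% of all calls in control livers with quantile normalization, 64% with centred medians and 65.9% with the values as deposited. In null livers these shares were 45.1%, 64.1% and 74.3%. The 9 rises hold under all 3 scalings.

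**Figure D1:**
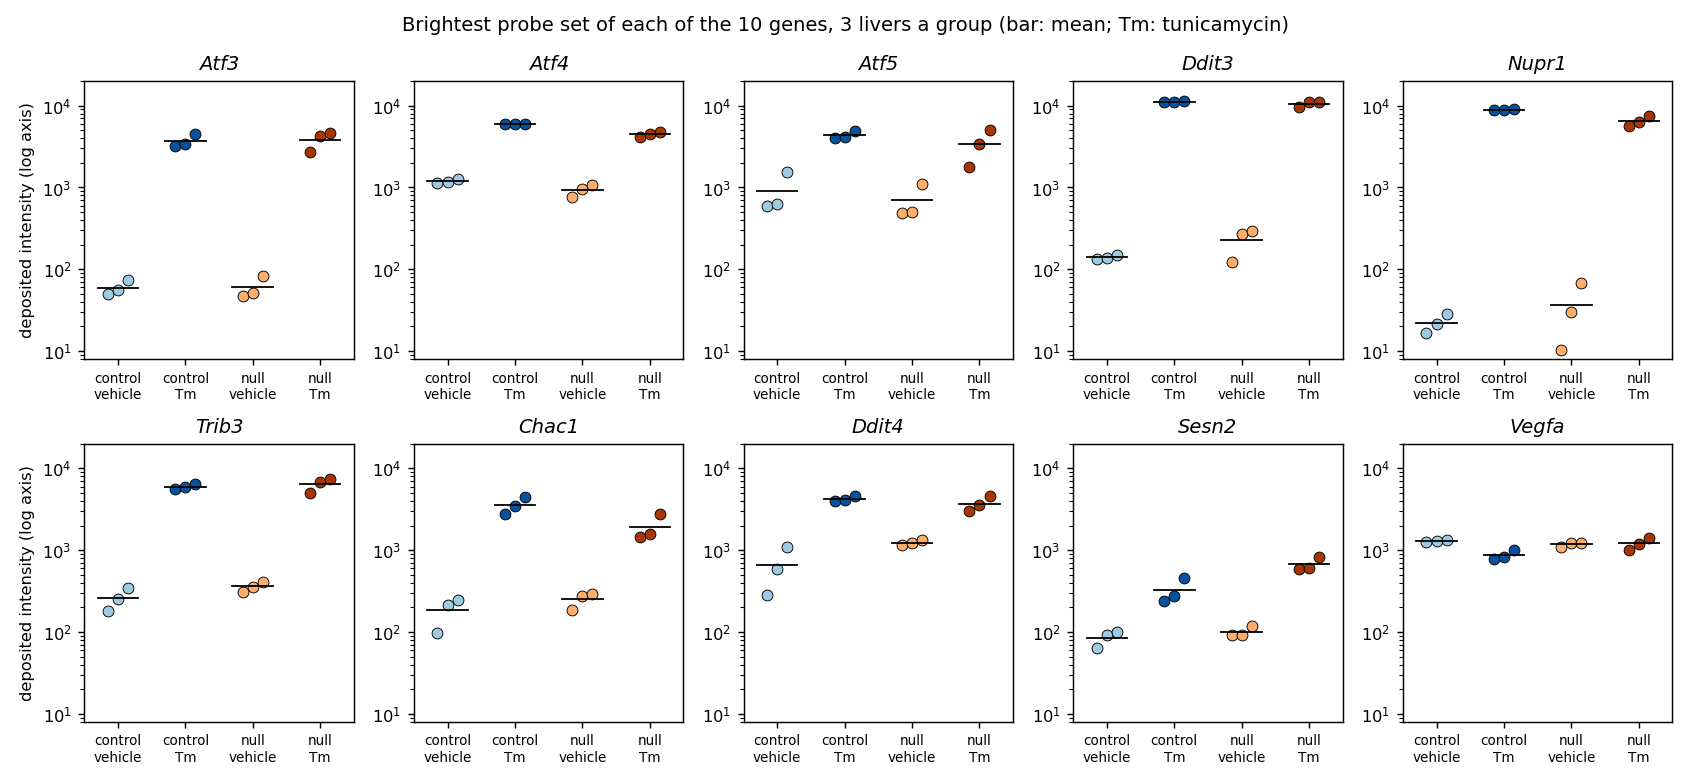
Deposited intensity (log axis) of the brightest probe set of each gene in the 12 livers, by group, with the group mean as a bar. Tunicamycin and vehicle arrays do not overlap in either genotype for the 9 genes that rose. For Vegfa they overlap in null livers.

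Atf4 encodes the central factor of the branch. In control livers its intensity was 1148, 1258 and 1180.1 with vehicle and 5939, 5973 and 5924 after tunicamycin. In null livers it was 764, 1075 and 949.6 with vehicle and 4191, 4705 and 4534 after tunicamycin. The 4 groups did not overlap at all, in the order control tunicamycin, null tunicamycin, control vehicle and null vehicle. Atf4 rose by 2.11 ± 0.14 (log2, SE of the limma fit, 3 arrays per group; adjusted p = 1.45e-06) in control and by 2.05 ± 0.14 (adjusted p = 3.8e-06) in null livers. Its spread within groups, an SD of 0.138 on the log2 scale, was at the 10.32 percentile of all genes. For this brightest probe set the null arrays were lower than the control arrays at both treatments. The differences, -0.29 (adjusted p = 0.988) with vehicle and -0.35 (adjusted p = 0.24) after tunicamycin, did not pass the test. The next probe set of Atf4 overlapped between genotypes with vehicle after normalization (-0.19, adjusted p = 0.939 among probe sets). After tunicamycin it was lower in null livers without overlap (-0.28, adjusted p = 0.547). Arrays that do not overlap in the lower direction were found for 4.41% of all genes with vehicle and for 11.5% after tunicamycin. The difference between the 2 responses was -0.06, with a 95% interval from -0.50 to 0.37.

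Ddit3 encodes CHOP, the factor most tied to cell death in this pathway. It measured 151, 132 and 136 in control vehicle livers and 11392, 11166 and 10943 after tunicamycin. Null livers gave 293, 268 and 121 with vehicle and 11004, 9677 and 11177 after tunicamycin. Ddit3 thus rose 64.3-fold in control livers (6.01 ± 0.24 log2, adjusted p = 3.95e-08) and 41.3-fold in null livers (5.37 ± 0.24, adjusted p = 2.14e-07). Of all 14568 genes it ranked 3 in control and 4 in null livers by size of rise. After tunicamycin the genotypes overlapped and differed by -0.03, with a 95% interval from -0.55 to 0.49. In those arrays only 76 to 111 of 45037 probe sets were brighter than Ddit3, so this comparison was made near the top of the intensity range. With vehicle, replicates 1 and 2 of the null livers were above every control and replicate 3 was below them, a difference of 0.61 (adjusted p = 0.988) that was 0.96 without that replicate (adjusted p = 0.191) and 0.35 without null vehicle replicate 1. The responses of Ddit3 differed by -0.64 (adjusted p = 0.705), and by -0.99 (adjusted p = 0.0739) and -0.38 without these same arrays.

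Atf3, a stress-induced factor that acts with CHOP, read 73.7, 49.4 and 55.4 in control vehicle livers. After tunicamycin the control livers read 4508, 3171 and 3406. The null livers read 82.0, 51.5 and 47.1 with vehicle and 4569, 2697 and 4227 after tunicamycin. The levels of the genotypes overlapped at both treatments. The rises were 5.45 ± 0.22 in control (adjusted p = 3.95e-08) and 5.54 ± 0.22 in null livers (adjusted p = 1.63e-07), ranks 5 and 3 of all genes. Their difference was 0.09, with a 95% interval from -0.59 to 0.77, and its sign turned in 5 of 24 alternative settings.

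Atf5 encodes an ATF4-related factor whose mRNA, like that of Atf4, is under translational control. Control livers gave 1525, 629 and 586 with vehicle and 4849, 4032 and 4160 after tunicamycin. Null livers gave 501, 1112 and 487 with vehicle and 3360, 1759 and 5108 after tunicamycin. One vehicle array of each genotype stood above its group, control replicate 1 and null replicate 2, and the within-group SD of Atf5 was at the 95.11 percentile of all genes. The same 2 arrays had the highest Gapdh 5' to 3' ratios of their groups, 0.7745 and 0.6422. Their actin ratios, 0.4543 and 0.2965, were the lowest of their groups. The vehicle difference between genotypes was -0.32, and it became 0.15 with the Gapdh ratio in the fit and -0.89 with the actin ratio. The lowest null tunicamycin array was replicate 2, the one with kidney transcripts. Atf5 rose by 2.13 ± 0.39 in control (adjusted p = 0.00165) and by 2.05 ± 0.39 in null livers (adjusted p = 0.00382). Fitted with the actin ratio of each array added, the control rise was 1.02 (adjusted p = 0.0177), and without null tunicamycin replicate 2 the null rise was 2.36.

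Nupr1 encodes a small nuclear stress protein, and with a pseudocount of 16 it gave the largest rise of all 14568 genes in both genotypes. In control livers its intensity went from 28.6, 16.5 and 21.4 with vehicle to 9105, 8819 and 8770.1 after tunicamycin. In null livers it went from 68.6, 30.4 and 10.5 to 6314, 5688 and 7431. Control and null arrays overlapped with vehicle, and after tunicamycin every null array was below every control array. The rises were 7.81 ± 0.32 in control (adjusted p = 4.14e-08) and 7.03 ± 0.32 in null livers (adjusted p = 2.14e-07) on the scale of log2(intensity + 16). Nupr1 was so dim with vehicle that the pseudocount set the size: the rises were 8.55 and 7.70 with a pseudocount of 1, and 6.64 and 5.99 with 64. The genotype difference after tunicamycin was -0.45 (adjusted p = 0.569). A second Nupr1 probe set gave -0.48 (adjusted p = 0.263) and also did not overlap. The vehicle value of null replicate 1 weighed on the brighter probe set: without that array the vehicle difference of 0.33 became -0.12.

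Trib3 encodes a pseudokinase that binds ATF4 and CHOP and holds them back. Control livers measured 253, 344 and 181 with vehicle and 5893, 5671 and 6368 after tunicamycin. Null livers measured 412, 359 and 308 with vehicle and 6902, 5049 and 7381 after tunicamycin. The genotypes overlapped at both treatments. Trib3 rose by 4.29 ± 0.21 in control (adjusted p = 1.02e-07) and by 3.93 ± 0.21 in null livers (adjusted p = 4.45e-07). The responses differed by -0.35 with this probe set and by 0.26 with the other one of Trib3, so that the sign depended on the probe set, and neither passed the test (adjusted p = 0.864 among genes and 0.954 among probe sets).

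Chac1 encodes an enzyme that breaks down glutathione and is a target of the ATF4, ATF3 and CHOP cascade. In control livers it measured 98.5, 243 and 215 with vehicle and 4471, 3464 and 2786 after tunicamycin. In null livers it measured 289, 184 and 276 with vehicle and 1444, 2739 and 1589.8 after tunicamycin. All 3 null tunicamycin arrays were below all 3 control ones in intensity, but by a narrow margin for replicate 2, and after normalization that array overlapped the controls. Chac1 rose by 3.98 ± 0.40 in control (15.7-fold, adjusted p = 2.55e-05) and by 2.61 ± 0.40 in null livers (6.10-fold, adjusted p = 0.00103). The difference between the responses was -1.37 ± 0.56, with a 95% interval from -2.60 to -0.13 before any correction, and did not pass the test (adjusted p = 0.504). Single arrays moved it in opposite directions. Without null tunicamycin replicate 2 it was -1.74 (adjusted p = 0.206), and without control vehicle replicate 1 it was -0.94 (adjusted p = 0.717).

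Ddit4, also named REDD1, encodes an inhibitor of the growth kinase complex mTORC1 that acts through the TSC proteins. Its vehicle values were 282, 1094 and 593 in control livers and 1314, 1158 and 1212 in null livers. After tunicamycin it read 4020, 4109 and 4573 in control livers and 3561, 3008 and 4570.0 in null livers. The null vehicle arrays lay above all 3 control vehicle arrays, which among themselves spread more widely than any other group of Ddit4 (SD 1.03 on the log2 scale). That vehicle difference, 1.15 ± 0.37, did not pass the test (adjusted p = 0.988), although it ranked 18 of all genes by size, and it was 0.60 without control vehicle replicate 1 and 1.61 without control vehicle replicate 2. Arrays that do not overlap in the higher direction were found for 3.75% of all genes with vehicle. Ddit4 rose by 2.63 ± 0.37 in control livers (adjusted p = 0.000321). In null livers it rose by 1.35 ± 0.37 (adjusted p = 0.0292), a call that was lost on leaving out any of 5 of the 6 null arrays (adjusted p = 0.054 to 0.0894) and that stayed at 0.0462 without the array with kidney transcripts. The responses differed by -1.28 ± 0.53, which did not pass the test (adjusted p = 0.504), by -0.73 without control vehicle replicate 1 and by -1.75 without control vehicle replicate 2 (adjusted p = 0.101).

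Sesn2 encodes a leucine-sensing inhibitor of mTORC1, and it was the 1 gene of the 10 that passed the test between genotypes. With vehicle it read 100.7, 91.2 and 64.3 in control livers and 120, 91.2 and 92.1 in null livers, which overlap. After tunicamycin it read 463, 278 and 239 in control livers and 599, 586 and 827 in null livers. Every null tunicamycin array lay above every control one. Sesn2 rose 2.96-fold in control livers (1.57 ± 0.21 log2, adjusted p = 0.000218) and 5.17-fold in null livers (2.37 ± 0.21, adjusted p = 2.52e-05). Under tunicamycin the null livers were 2.06-fold higher (1.05 ± 0.21 log2, 95% interval 0.58 to 1.51, adjusted p = 0.0156). The responses themselves differed by 0.80 ± 0.30 and did not pass the test (adjusted p = 0.415).

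The Sesn2 call under tunicamycin depended on single arrays and on the probe set. The difference was 1.00 without the array with kidney transcripts (adjusted p = 0.0428). With the Gapdh ratio in the fit, which did not overlap between these 2 groups, it was 0.98 (adjusted p = 0.0403). It was no longer called without control tunicamycin replicate 2 (0.97, adjusted p = 0.0878), control tunicamycin replicate 3 (0.91, adjusted p = 0.0669) or null tunicamycin replicate 3 (0.96, adjusted p = 0.0576). The first and the last of these were the arrays with the high neutrophil and monocyte sums, whose part in the call was not tested. The dimmer second probe set of Sesn2 differed by 0.20 (adjusted p = 0.75), and its responses of 0.29 in control and 0.51 in null livers did not pass either. The mean of both probe sets differed by 0.62 (adjusted p = 0.0741), and a fit of the 2 groups alone gave an adjusted p of 0.0595.

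Vegfa encodes the angiogenic growth factor VEGF-A, a target of ATF4 and of the hypoxia factors, and it did not rise. Control livers read 1336, 1251 and 1297 with vehicle and 1006, 819 and 775 after tunicamycin, without overlap. Null livers read 1232, 1085 and 1229 with vehicle and 1418, 1188 and 1018 after tunicamycin, which overlap. Vegfa fell by 0.79 ± 0.17 on the log2 scale in control livers (adjusted p = 0.00522), among the 13.3% of all genes called lower. In null livers its change was -0.22 ± 0.17 (adjusted p = 0.422), and the sign turned to 0.02 with the values as deposited. The responses differed by 0.57 ± 0.24 (adjusted p = 0.529). The control fall was not called with the mean of the gene's probe sets (-0.54, adjusted p = 0.0548) or once the actin ratio entered the fit (-0.50, adjusted p = 0.141), and the dim second probe set gave -0.28 (adjusted p = 0.597).

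**Figure D2:**
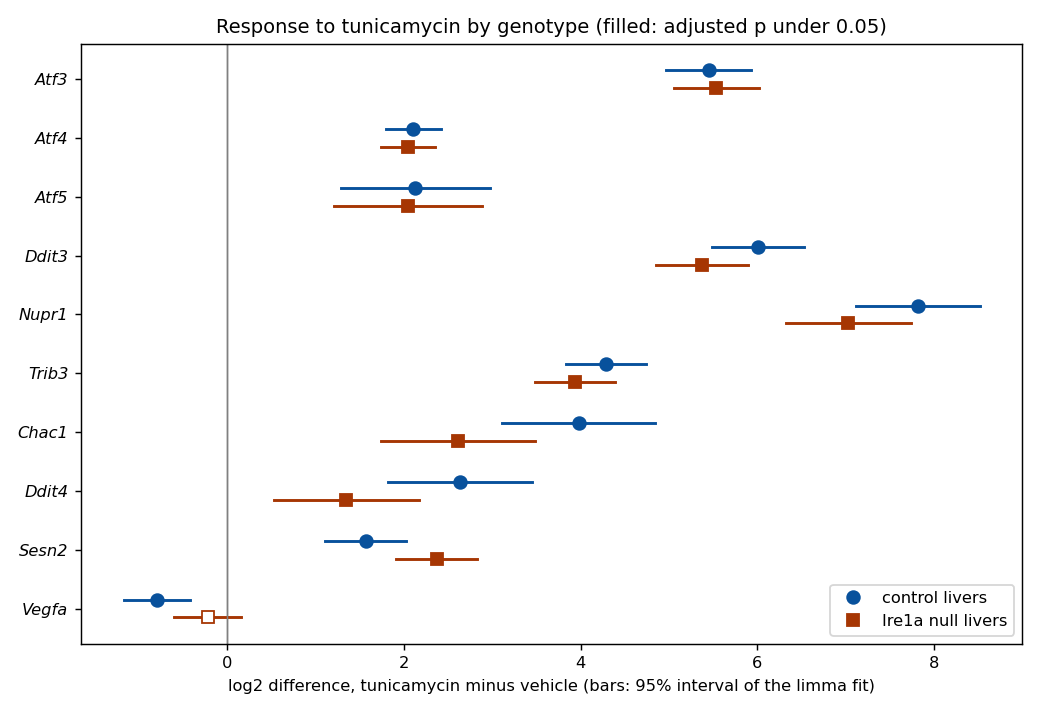
Log2 response to tunicamycin of each gene in control livers (circles) and Ire1α null livers (squares), with the 95% interval of the limma fit; filled symbols have an adjusted p under 0.05. The intervals of the 2 genotypes overlap for each of the 10 genes, and the open symbol is Vegfa in null livers, at -0.22.

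Of the genes, 6 had more than 1 probe set. Over all 17 probe sets, fitted with all 34945, 13 were higher, 1 was lower and 3 were not called in control livers, against 14.7% of all probe sets called. In null livers 13 were higher, 0 lower and 4 not called, against 8.61%. The uncalled probe sets were the dim one of Atf4 and the dimmer ones of Sesn2 and Vegfa, and in null livers also the brighter one of Vegfa. In control livers the brighter and the next probe set gave 2.11 and 1.52 for Atf4, 4.29 and 4.63 for Trib3, and 7.81 and 7.68 for Nupr1. For Ddit3 the dim probe set, at an intensity of 7.06 to 12.6 in control vehicle livers, gave a rise of 1.52 where the bright one gave 6.01.

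**Figure D3:**
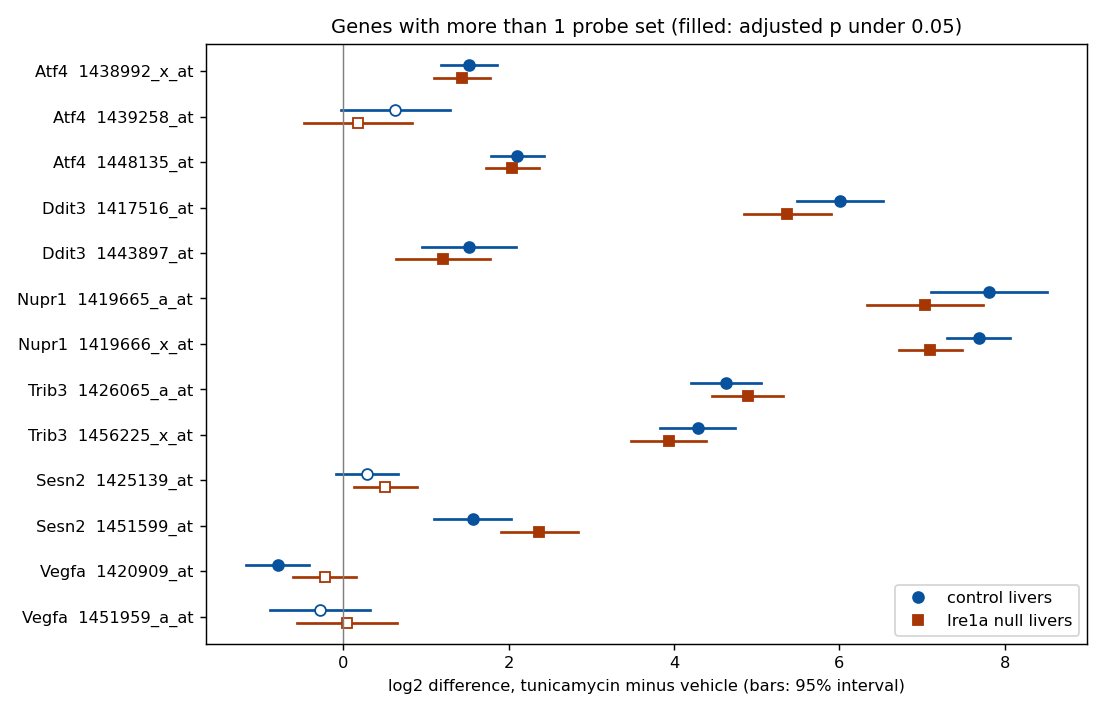
Log2 response to tunicamycin, with its 95% interval, of every probe set of the 6 genes that have more than 1, in control (circles) and null livers (squares). Both probe sets of Nupr1 lie between 7.03 and 7.81, while those of Ddit3 in control livers lie at 6.01 and 1.52.

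Between genotypes the 10 genes gave few calls. With vehicle, limma called 0 of the 10 and 0 of all genes (0%), while 3 of the 10 and 597 of all genes (4.1%) had an unadjusted p under 0.05. The 3 were Ddit4, Ddit3 and Trib3, each with a higher mean in null livers for its brightest probe set. The other probe set of Trib3 went the other way with vehicle, at -0.08 (adjusted p = 0.977 among probe sets). By the brightest probe set, the arrays of 1 gene, Ddit4, did not overlap in the higher and of 1, Atf4, in the lower direction. Of all genes, 8.15% did not overlap in either direction. Under tunicamycin 1 of the 10 was called, Sesn2, against 3.99% of all genes called, 0.755% higher and 3.23% lower, and against 2.28% of all probe sets. It was also at least 2-fold higher, as were 0.275% of all genes. Without overlap under tunicamycin were Sesn2 in the higher and Atf4 and Nupr1 in the lower direction, 3 of the 10. Of all genes, 21.8% did not overlap there, 10.2% in the higher and 11.5% in the lower direction. Another 3 of the 10 had an unadjusted p under 0.05: Vegfa (0.51, adjusted p = 0.158), Atf4 and Chac1 (-0.89, adjusted p = 0.31). With Sesn2 these made 4 of the 10 at that level, against 2273 of all genes (15.6%). Vegfa was called higher in null livers without null tunicamycin replicate 3 (0.70, adjusted p = 0.039). Without the array with kidney transcripts Vegfa differed by 0.38 (adjusted p = 0.335). The dim second probe set of Vegfa differed by 0.01 under tunicamycin (adjusted p = 0.996 among probe sets). The interaction called 0 of the 10 by limma against 0.837% of all genes, 0.0137% higher and 0.824% lower, and 0.378% of all probe sets. Of the 10, 4, Sesn2, Ddit4, Chac1 and Vegfa, had an unadjusted p under 0.05, as did 8.26% of all genes. With array quality weights 3 of the 10 were called under tunicamycin, Sesn2 and also Chac1 (-1.13, adjusted p = 0.0344) and Atf4 (-0.43, adjusted p = 0.0395).

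**Figure D4:**
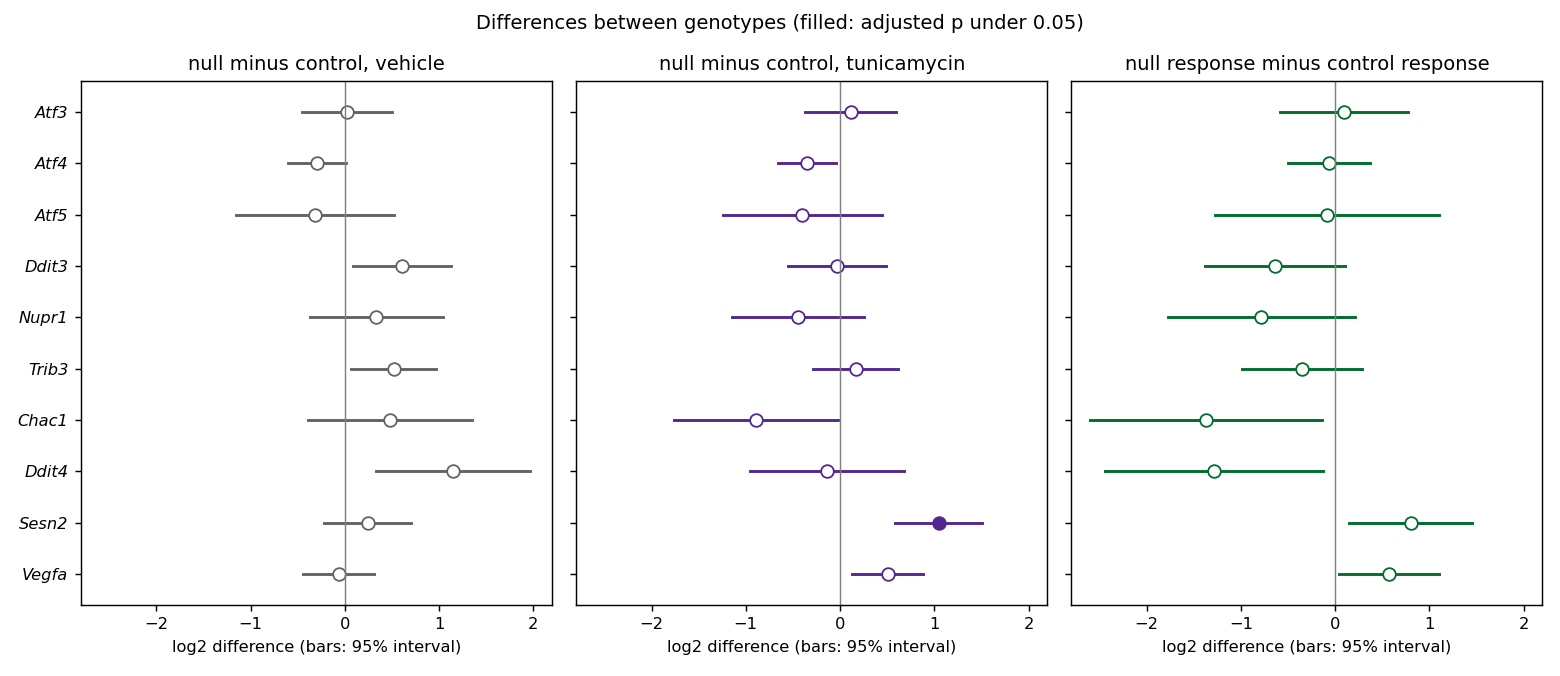
Null minus control difference of each gene with vehicle and after tunicamycin, and the difference between the 2 responses (log2, with 95% intervals not corrected for the number of genes). The only filled point is Sesn2 after tunicamycin, at 1.05.

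The 95% interval of the difference between responses spanned -0.50 to 0.37 for Atf4, -0.59 to 0.77 for Atf3 and -0.99 to 0.28 for Trib3. For Ddit3 it spanned -1.38 to 0.10, for Nupr1 -1.78 to 0.21 and for Atf5 -1.27 to 1.11. A 2-fold weaker response in null livers lay inside the intervals of Ddit3, Nupr1, Atf5, Chac1 and Ddit4 and outside those of Atf4, Atf3, Trib3 and Sesn2. Vegfa fell by less than 2-fold in control livers, so this reading does not apply to it. Its interval was 0.04 to 1.10.

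Genes upstream of ATF4 were read next. Of 15 tested genes for eIF2, its kinases, its exchange factor and its phosphatase, 7 rose in control livers and 6 in null livers, and none fell. Over all genes 11.6% rose and 13.3% fell in control livers, and 7.59% rose and 9.23% fell in null livers. Ppp1r15a, which encodes the phosphatase subunit GADD34 that reverses eIF2α phosphorylation, rose by 2.62 ± 0.19 (adjusted p = 2.36e-06) and 2.85 ± 0.19 (adjusted p = 2.68e-06). Eif2ak3, the gene of PERK itself, rose by 2.03 ± 0.33 and 1.12 ± 0.33. Dnajc3, whose product p58IPK inhibits PERK, rose by 1.45 ± 0.12 and 1.06 ± 0.12. Eif2b3, a subunit of the exchange factor, rose by 0.67 ± 0.12 and 0.66 ± 0.12. Between genotypes under tunicamycin limma called 0 of the 15 genes, against 3.99% of all genes. An unadjusted p under 0.05 was found for 4 of the 15, against 15.6% of all genes. Eif2ak3 differed by -1.14 (adjusted p = 0.0854). Ppp1r15b, which encodes the constitutive partner of the same phosphatase, was nearest to the threshold and differed by 0.45 (adjusted p = 0.0806).

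Of 36 further genes reported as targets of ATF4 or CHOP, 20 rose and 1 fell in control livers, and 21 rose and 1 fell in null livers. The shares of all genes that rose and fell were 11.6% and 13.3% in control and 7.59% and 9.23% in null livers. The single falls, named after their values were seen, were Bbc3 in control livers (-0.91) and Atg5 in null livers (-0.59). Psat1, an enzyme of serine synthesis, rose by 5.30 ± 0.22 and 4.63 ± 0.22. Fgf21, a liver hormone, rose by 4.98 ± 0.41 and 4.61 ± 0.41. Wars, the tryptophan tRNA synthetase, rose by 2.91 ± 0.17 and 2.12 ± 0.17. Gadd45a, a growth arrest gene, rose by 2.57 ± 0.44 in control and 4.48 ± 0.44 in null livers, and the difference of 1.91 did not pass the test (adjusted p = 0.293). The median response of the list was 0.78 in control and 1.04 in null livers.

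Under tunicamycin 2 of these 36 genes were called between genotypes, against 3.99% of all genes. Ero1a, an ER oxidase that CHOP is known to raise, was lower in null livers (-0.90 ± 0.15, adjusted p = 0.00418), after rises of 2.06 in control and 1.14 in null livers. Vldlr, a lipoprotein receptor named here after its values were seen, was higher (1.42 ± 0.34, adjusted p = 0.0366). The interaction called 0 of the 36 by limma, against 0.837% of all genes. An unadjusted p under 0.05 was found for 4 of them, against 8.26% of all genes.

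The ER genes of the XBP1 and ATF6 branches were counted beside them. All 27 tested rose in control livers and 19 rose in null livers, against 11.6% and 7.59% of all genes. Under tunicamycin 14 were lower in null than in control livers, and 1, Xbp1, named after its values were seen, was higher (0.56). Of all genes, 3.23% were called lower there and 0.755% higher. The interaction called 7, all lower, against 0.824% of all genes called lower. Among the 7 was Edem2, which helps to remove misfolded glycoproteins, with responses of 1.34 and -0.25 (interaction -1.58, adjusted p = 0.017). Sec24d, a coat protein of ER vesicles, responded by 1.76 and 0.47 (interaction -1.29, adjusted p = 0.0174). Sec61a1, the pore of the translocon, gave 1.51 and 0.45, and Syvn1, a ubiquitin ligase of the ER, 3.87 and 2.87. Other ER genes kept most of their rise: Sdf2l1 gave 3.90 and 3.82, and Creld2 5.05 and 4.78. Derl3 gave 6.66 and 5.66, a drop on the log2 scale about as large as that of Syvn1. Sdf2l1, Creld2 and Derl3 were not called between genotypes under tunicamycin (adjusted p = 0.334, 0.443 and 0.816 by limma) or in the interaction. The median difference under tunicamycin was -0.49 for these 27 genes, -0.08 for the 10 regulators, 0.06 for the 36 other targets and 0.02 for all genes.

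**Figure D5:**
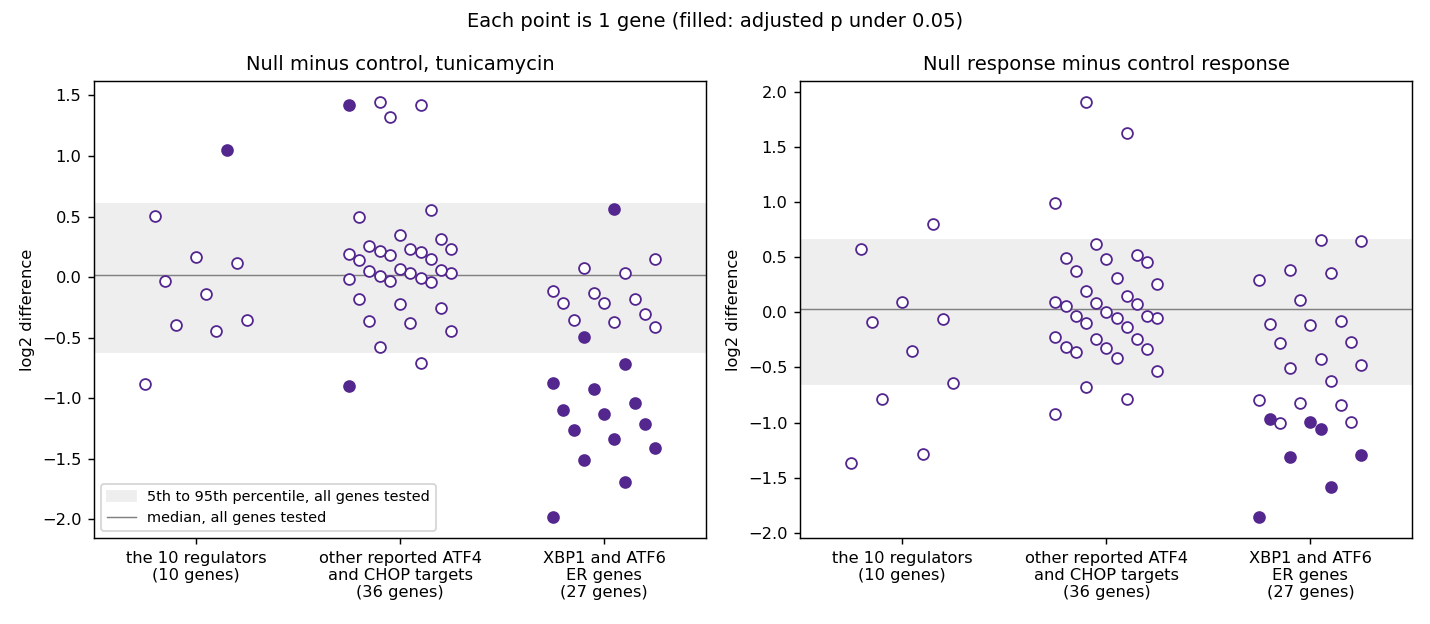
Null minus control difference under tunicamycin (left) and difference between the 2 responses (right), in log2 units, for the 10 regulators, 36 other reported ATF4 and CHOP targets and 27 ER genes of the XBP1 and ATF6 branches. The grey band spans the 5th to 95th percentile of all genes; 15 ER genes are filled on the left and 7 on the right, against 1 and 0 regulators.

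Ddit4 and Sesn2 both feed into mTORC1. Of 16 tested genes of that list, 3 rose and 3 fell in control livers, and 1 rose and 2 fell in null livers. The shares over all genes were 11.6% up and 13.3% down in control livers, and 7.59% and 9.23% in null livers. The 2 other sestrins fell in both genotypes: Sesn1 by -1.08 ± 0.25 and -1.16 ± 0.25, and Sesn3 by -1.18 ± 0.17 and -1.17 ± 0.17. Sesn3 intensities were 826 to 927 in control vehicle and 397 to 513 in control tunicamycin livers, without overlap. Rheb, the GTPase that turns mTORC1 on, rose by 0.60 ± 0.14 in control livers, and Tsc1, part of the complex that turns it off, fell by 0.76 ± 0.20. In null livers their values of 0.33 and -0.55 did not pass the test.

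Vegfa was set beside 16 targets of the hypoxia factors. Of these, 1 rose and 3 fell in control livers, with the same counts in null livers. Of all genes, 11.6% rose and 13.3% fell in control livers, and 7.59% and 9.23% in null livers. Egln3, an oxygen sensor, fell by 1.47 ± 0.24 and 1.13 ± 0.24, and Pdk1, a brake on pyruvate oxidation, fell by 1.18 ± 0.28 and 1.07 ± 0.28. Ankrd37 fell by 0.89 ± 0.22 in control livers, and its value of -0.28 in null livers did not pass. P4ha2, a collagen prolyl hydroxylase, rose by 0.51 ± 0.14 and 0.94 ± 0.14 and was higher in null livers under tunicamycin (0.71 ± 0.14, adjusted p = 0.0129).

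Ddit4 is also known to respond to glucocorticoids, so 12 such genes were set beside it. In control livers 4 rose and 1 fell, and in null livers 3 rose. Beside this, 11.6% of all genes rose and 13.3% fell in control livers, and 7.59% rose and 9.23% fell in null livers. Cdkn1a, a cell cycle inhibitor that is also a stress gene, rose by 4.65 ± 0.38 and 3.60 ± 0.38, and the kinase gene Sgk1 by 2.11 ± 0.23 and 2.65 ± 0.23. Dusp1, a phosphatase gene, fell by 1.70 ± 0.34 in control livers. The clock gene Per1 rose by 1.95 ± 0.44 in control livers. It read 156 in control vehicle replicate 1 and 549 to 908 in the other 5 vehicle arrays, and in that same array Ddit4 and Chac1 had their lowest values of all 12 livers. Klf9, at 3102 in that array, was also lowest there. Whether these low values share a source was not tested.

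By the rule for likeness, the 3 genes with the highest Pearson correlation over the 12 arrays were named for each regulator. These are descriptions, since the arrays fall into treated and untreated ones and any gene with a large response correlates. Ddit3 was most like Derl3 (r = 0.9966), Sel1l and Psat1, and Nupr1 most like Atp2a2 (r = 0.9974), Derl3 and Sel1l. Atf3 was nearest to Cyb5r1 (r = 0.9954), Atp2a2 and Smox, and Trib3 to Cyb5r1 (r = 0.9941), Derl3 and Psat1. Atf4 was followed by Mrps18b (r = 0.9909), Ccl9 and Irx3, and Atf5 by Bysl (r = 0.9818), Il17ra and N6amt1.

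Chac1 was most like Ccdc186 (r = 0.9738), Ticam1 and Nus1, each with a smaller value in null than in control livers, such as 0.89 against 1.59 for Ccdc186. Ddit4 was most like Klf9 (r = 0.9709), Bsdc1 and Snhg3. Sesn2 was nearest to Nop56 (r = 0.9866), Pum3 and Ermp1, all with the larger value in null livers, as for Nop56 with 1.43 against 1.09. The choice by correlation over the same arrays favours genes that share such a difference with Chac1 or Sesn2. None of these neighbours of Chac1 and Sesn2 was called in the interaction by limma (adjusted p = 0.368 to 0.828). Vegfa was nearest to Pafah1b3 (r = 0.9605), Ablim1 and Nectin3, which fell in control livers by 1.06, 1.44 and 0.96. Among the 10 regulators themselves, r ran from 0.997 between Ddit3 and Nupr1 to 0.668 between Atf5 and Ddit4 for the 9 risers, and Vegfa was negative against each of them.

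The livers were analysed as whole tissue, so a smaller number of cells of a type and less RNA per cell cannot be told apart for any of these genes. The labels call the livers biological replicates, and no 2 arrays held identical values. With 3 arrays per group, their number limits the precision of every difference above.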

How the data were processed

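Liver RNA (6 µg) was labelled as biotin cRNA for Affymetrix arrays, per the labels. The authors deposited 1 intensity value for each probe set on a linear scale. The sources used here do not say how probes were summarised or scaled. Of 45101 probe sets, 64 controls were set aside, 932 carried several symbols and 9160 carried none. After log2 conversion with a pseudocount of 16, arrays were quantile normalized (limma 3.58.1, R 4.3.3). The dimmest 30% were dropped and the brightest probe set stood for its gene. One fit of group means to all 12 arrays (8 residual degrees of freedom) gave 5 contrasts through lmFit and eBayes. The threshold was a Benjamini-Hochberg adjusted p below 0.05 over all 14568 genes. A second fit took all 34945 probe sets with 1 symbol, unfiltered. The code was tested on simulated data.

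The members and lists were chosen with earlier results of these data known. Named genes are all members, the 3 most correlated genes of each and, from each list, up to 4 by smallest p in the control response and up to 3 by smallest p in the interaction. Promoter windows came from RefSeq (GRCm38.p6), and their last 50 bases, after the start, were not searched. The main fits did not pair arrays by replicate number. Figures used matplotlib 3.10.9 in Python 3.11.15.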

Additional observations from a re-analysis of the deposited data

How the results depend on the processing

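Settings tried were a pseudocount of 1 or 64, no filter or one at 50%, centred medians, deposited values, averaged probe sets, trended and robust eBayes, array weights, 2 groups per fit, the Gapdh or actin ratio in the fit, the replicate number as a block, and leaving out each array. Of the members' differences, 957 kept direction and side of the threshold, 12 lost and 3 gained a call, and 28 turned sign, none of them called. Counts of members called under tunicamycin between genotypes were 0 with averaged probe sets, 3 with array weights, 0 with 2 groups per fit, and 0 to 1 on leaving out an array.

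Sign changes by setting were these. Deposited values gave Vegfa 0.0207 in the null response and Atf3 -0.00125 with vehicle. Centred medians gave Atf3 -0.00648 under tunicamycin and -0.0179 in the interaction. Averaged probe sets gave Ddit3 0.0402 and array weights gave it 0.00275 under tunicamycin, while weights gave Atf5 0.141 in the interaction. The Gapdh ratio gave Atf3 -0.0695 and Atf5 0.153 with vehicle, and the actin ratio gave Atf3 -0.0245 and Vegfa 0.0878 with vehicle and Atf5 0.348 in the interaction. On leaving out an array, the vehicle difference ranged from -0.192 to 0.152 for Atf3, -0.662 to 0.0758 for Atf5, -0.118 to 0.748 for Nupr1 and -0.131 to 0.0429 for Vegfa. The tunicamycin difference ranged from -0.0115 to 0.270 for Atf3, and the interaction from -0.0394 to 0.306 for Atf3, -0.161 to 0.0163 for Atf4 and -0.477 to 0.263 for Atf5. The cause of these changes was not tested.

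Counts over all genes moved by over 1.5 times in the control response with the actin ratio (1885), in the null response with 2 groups per fit (1487) and without null tunicamycin replicate 3 (1617) or null vehicle replicate 1 (1614), and under tunicamycin between genotypes with array weights (1284), 2 groups per fit (364) and without control tunicamycin replicate 1 (347), replicate 2 (279) or null tunicamycin replicate 1 (348). The interaction count was 71 and 186 with a pseudocount of 1 and 64, 225 with array weights and 14 to 126 on leaving out an array. Same-numbered arrays deviated with r = -0.41 to 0.49 (above 0.1 in 5 of 18 pairs), and 6 of 12 arrays correlated best with their own number. So few arrays do not settle whether the numbers mark pairs. With the replicate block, members called were 10, 9, 0, 1 and 0 in the 5 contrasts, as without it, and all genes called were 3374, 2144, 1, 440 and 59, against 3636, 2449, 0, 581 and 122. With 3 arrays a group, the exact permutation p of a single value cannot go below 0.1.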
